A study of Homo sapiens with 83 samples.

Results

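The MYC and MAX network is described here through 10 genes, MYCN, MYC, MAX, MXD1, MXD3, MXD4, MXI1, MNT, MGA and MLX, taken by their symbol from 60237 gene entries. Each symbol matched 1 entry. The libraries came from SHEP and SKNAS, established human neuroblastoma lines in which N-MYC-ER, the N-MYC protein fused to the hormone-binding part of the estrogen receptor, had been introduced. The fusion transcript is made at all times, and 4-hydroxytamoxifen (4OHT) lets the protein enter the nucleus. In the MYC-OFF groups cells were given ethanol and in the MYC-ON groups 4OHT, and 24 h later all 4 groups were given dexamethasone to set their clocks. Circadian time (CT) counts the hours since dexamethasone, and polyadenylated RNA was collected every 4 h. SHEP MYC-OFF and SHEP MYC-ON each had 2 series of 14 time points, CT24 to CT76, or 28 libraries. For SKNAS a single series of each condition was given, 14 MYC-OFF libraries and 13 MYC-ON libraries that ended at CT72. No cells without the fusion were among the 83 libraries, so an effect of 4OHT itself and of active N-MYC cannot be told apart, and the line and its experiment cannot be told apart either. Levels are in TPM, a measure of transcript abundance divided by transcript length, and changes are differences of log2(TPM + 1), which understate the change of genes at low TPM.

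MYC and N-MYC bind DNA as heterodimers with MAX, most strongly at the E-box CACGTG, and activate transcription of genes for ribosome production, nucleotide synthesis and cell growth. The MXD proteins (MXD1, MXD3, MXD4 and MXI1, also called MXD2), MNT and MGA pair with MAX at the same sites and mostly repress. MXD and MNT recruit the SIN3 corepressor, MGA belongs to a noncanonical polycomb complex, and MXD genes are known for their expression in cells that stop dividing. MLX is a MAX-like factor that pairs with MLXIP (MondoA), MLXIPL (ChREBP), MNT, MXD1 and MXD4, and together with MLXIP it drives the glucose-responsive gene TXNIP. MYCN is the oncogene amplified in aggressive neuroblastoma, and high N-MYC is known to go with low MYC.

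The network's E-box occurs in the promoters of some of its own members. The letters CACGTG, which read the same on both strands, were searched in RefSeq promoter windows (GRCh38.p14, 250 bases before to 50 after a start site) of 9 members, MYC not being included in the search. Of 14 windows, 3 held them, 1 each for MXD4, MNT and MLX, which had different responses to 4OHT as given below, while 7.26% of all 35116 windows did. The E-box began 238 bases before the start of MXD4, 193 before that of MNT and 50 before that of MLX. A match is a description of the letters and no binding was measured. The 30 bases around each are shown in the direction of transcription, with the E-box in capitals.
MXD4, GRCh38 chr4:2262330-2262359, - strand: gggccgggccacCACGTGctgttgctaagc
MNT, GRCh38 chr17:2401236-2401265, - strand: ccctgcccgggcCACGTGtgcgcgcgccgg
MLX, GRCh38 chr17:42567038-42567067, + strand: gcgggcgcgggtCACGTGggcacgccaccc

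Libraries of SKNAS were uneven, and this touches every level in that line. The median over tested genes of log2(TPM + 1) ran from 3.93 to 4.17 in SHEP MYC-OFF and from 3.93 to 4.12 in SHEP MYC-ON. In SKNAS it ran from 2.97 to 4.38 in MYC-OFF and from 2.76 to 4.25 in MYC-ON, and 10 of 14 MYC-OFF but 3 of 13 MYC-ON libraries stood at 3.8 or more. Over all genes tested in SKNAS, the median change with MYC-ON was -0.29 on TPM, 0.032 after median-of-ratios rescaling and 0.013 with the library median as a covariate. Of the genes called in SKNAS, 28.8% were higher on TPM. That share was 53.6% once rescaled and 52.2% with the covariate, so SKNAS changes are read against that shift. The read depth of single libraries is unknown. Of 10 adrenergic neuroblastoma markers, 3 had a mean of at least 1 TPM in either SHEP group, with summed levels of 44.2 to 100 TPM, and 7 in either SKNAS group, with sums of 189 to 985 TPM. Of 10 mesenchymal markers, at least 9 had a mean of 1 TPM or more in each group, with sums of 3449 to 5451 TPM in SHEP and 689 to 2727 TPM in SKNAS. VIM made up most of these sums, with MYC-OFF means of 3469 TPM in SHEP and 1431 TPM in SKNAS. In MYC-OFF, PRRX1 (0.633 and 67.7 TPM) and TWIST1 (34 and 97.2 TPM) had lower means in SHEP than in SKNAS. The other markers of the list had higher means in SHEP.

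The first comparison asked which members differed between MYC-ON and MYC-OFF. In SHEP, 8 of 10 members passed the test, 4 higher (MXI1, MNT, MGA, MAX) and 4 lower (MYC, MXD3, MXD4, MYCN), beside 71.9% of the 14362 genes tested, 33% higher and 38.9% lower. The median log2 change was 0.024 over the members and -0.036 over all genes tested. In SKNAS, 4 of 10 passed on TPM, MXI1 higher and MYC, MXD3 and MXD4 lower, beside 48.1% of 13886 genes (13.9% higher and 34.2% lower), with medians of -0.22 and -0.29. After rescaling 51.5% of the SKNAS genes passed (27.6% higher and 23.9% lower) and with the covariate 54.2% (28.3% higher and 25.9% lower), against which the SKNAS counts of those fits are to be read. MXD1 and MLX passed in neither line on TPM. A gene passed where its adjusted p in limma was 0.05 or less and its change reached 0.15 on the log2 scale. In SHEP the ranges of MYC, MXD3 and MXI1 did not overlap between conditions, 3 of 10 members beside 12.5% of all genes tested (6.11% higher and 6.36% lower in MYC-ON), and in SKNAS that of MYC did not, 1 of 10 beside 4.41% (2.32% higher and 2.09% lower). Each library is RNA of a whole culture, so fewer cells with a transcript and less of it per cell cannot be told apart. The time points of a series stood as replicates, so the p-values measure the spread between time points of the same experiments.

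**Figure D1:**
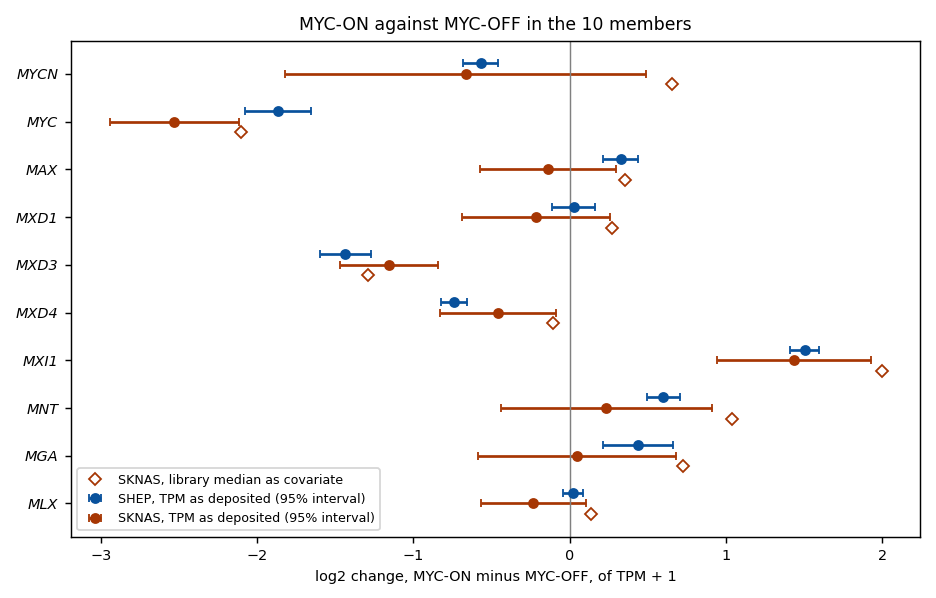
Log2 change of each member in MYC-ON against MYC-OFF (x axis, on log2 of TPM + 1, genes on the y axis), with 95% intervals for SHEP (blue, 56 libraries) and SKNAS (brown, 27 libraries) on the deposited TPM, and open diamonds for SKNAS with the library median as a covariate. MYC and MXD3 lie left and MXI1 right of 0 for both lines and under the covariate, while MYCN, MAX, MXD1 and MLX in SKNAS move from the left to the right of 0 with the covariate.

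MYCN (ENSG00000134323, chromosome 2, 15940550 to 15947007 on the + strand) had the highest level of the 10 members in all 4 groups. Its transcripts include those of the fusion, and by the authors' account SHEP cells do not express N-MYC themselves. The lowest, median and highest MYCN levels were 406, 559.9 and 688 TPM in SHEP MYC-OFF and 255, 353 and 515 TPM in SHEP MYC-ON, which overlapped. MYCN was lower in MYC-ON in 28 of 28 pairs of the same series and CT, with a log2 change of -0.57 (limma adjusted p = 1.17e-12, SE 0.056). MYCN thus made up a smaller share of the transcripts in SHEP with active N-MYC than in the controls. TPM are scaled to one total, so the amount of MYCN RNA per cell was not measured. In SKNAS the levels were 29.1, 612 and 987 TPM in MYC-OFF and 13.1, 309 and 1046 TPM in MYC-ON, a spread that was far wider than in SHEP. There the log2 change was -0.67 (limma adjusted p = 0.321, SE 0.54), with a 95% interval of -1.82 to 0.49, and 0.65 (limma adjusted p = 0.0631) with the library median as a covariate, so no direction can be given.

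The estrogen receptor gene ESR1, to which reads of the receptor part of the fusion can be assigned, was also lower in SHEP MYC-ON. Its time course in that group differed from that of MYCN, as given below. ESR1 was at 967 ± 121 TPM (n = 28, SD) in SHEP MYC-OFF and 691 ± 96.1 TPM (n = 28, SD) in SHEP MYC-ON, with a change of -0.49 (limma adjusted p = 1.75e-12, SE 0.049), and at 746 ± 379 TPM (n = 14, SD) and 613 ± 361 TPM (n = 13, SD) in the SKNAS groups. The ratio of ESR1 to MYCN was 1.74 ± 0.0805 and 1.86 ± 0.249 in SHEP. In SKNAS it was 2.06 ± 1.34 and 2.4 ± 1.31, with a highest value of 6.06 in MYC-ON. After the mean of each series and condition was removed, MYCN and ESR1 correlated at r = 0.77 over 56 SHEP libraries and r = 0.98 over 27 SKNAS libraries. The points share libraries and, in SKNAS, the spread of the library median, with which MYCN correlated at 0.96 and ESR1 at 0.90. MYCNOS, the antisense neighbour of MYCN, was listed at 0 in every SHEP library and had means of 0.0416 and 7.48e-04 TPM in SKNAS. The neighbours DDX1 and NBAS, which are often co-amplified with MYCN, were higher in SHEP MYC-ON. Their log2 changes were 0.28 (limma adjusted p = 1.50e-09) and 0.26 (limma adjusted p = 1.20e-06). Reads of the fusion and of the MYCN locus share an entry and were not separated, so the source of the MYCN change in SHEP was not tested. NBAS did not pass with series means as replicates, at 0.26 (limma adjusted p = 0.0638).

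**Figure D2:**
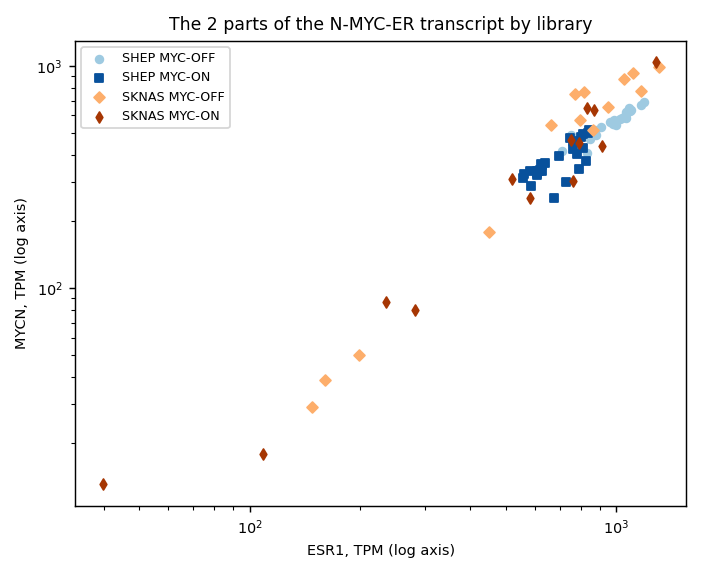
MYCN (y axis) against ESR1 (x axis), both in TPM on log axes, 1 point per library of the 4 groups. The SHEP libraries form a compact cloud in which most MYC-ON points lie lower than MYC-OFF, and the SKNAS libraries run along a line from an MYCN level of 13.1 TPM to one of 1046 TPM.

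MYC (ENSG00000136997, chromosome 8, 127735434 to 127742951 on the + strand) fell with MYC-ON in SHEP and in SKNAS. In SHEP its lowest, median and highest levels were 7.42, 11.3 and 17.7 TPM in MYC-OFF and 0.801, 2.05 and 6.45 TPM in MYC-ON. In SKNAS they were 4.12, 16.1 and 23.1 TPM and 0.246, 1.6 and 3.13 TPM. The ranges did not overlap in either line, and MYC was lower in MYC-ON in 28 of 28 and 13 of 13 pairs of the same CT. The group means differed 4.42-fold in SHEP and 9.06-fold in SKNAS, and the log2 changes were -1.87 (limma adjusted p = 3.80e-21, SE 0.10) and -2.53 (limma adjusted p = 9.39e-08, SE 0.20). Relative to MAX in the same library, MYC went from 0.112 ± 0.0262 to 0.0205 ± 0.0122 in SHEP and from 0.181 ± 0.0388 to 0.0212 ± 0.010 in SKNAS. MYC made up 2.05 ± 0.585% of the summed MYC and MYCN level in SHEP with ethanol and 0.712 ± 0.469% with 4OHT. In SKNAS its median was 2.86% in MYC-OFF, from 2.02 to 17.9%, and 0.491% in MYC-ON, from 0.274 to 3.24%. The high MYC-OFF values came from libraries with low medians, since in those at 3.8 or more the share was 2.49 ± 0.528% in MYC-OFF and 0.366 ± 0.112% in MYC-ON.

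MAX (ENSG00000125952, chromosome 14, 65006174 to 65102695 on the - strand), the obligate partner of MYC and N-MYC, was the second most abundant member in each group. It was at 103 ± 12.4 TPM (n = 28, SD) in SHEP MYC-OFF, from 80.8 to 123 TPM, and at 129 ± 18.7 TPM (n = 28, SD) in SHEP MYC-ON, from 82 to 159 TPM. The log2 change in SHEP was 0.33 (limma adjusted p = 7.28e-07, SE 0.055), higher in 25 of 28 pairs, though the ranges overlapped. Late in series 1 the means of the 2 conditions were alike, as given with the time course below. In SKNAS the lowest, median and highest levels were 27.2, 92.1 and 122 TPM and 30.8, 68.6 and 150.2 TPM. There the change was -0.14 (limma adjusted p = 0.588, SE 0.20) on TPM but 0.35 (limma adjusted p = 0.00343) with the covariate and 0.39 (limma adjusted p = 0.0248) in the 13 libraries with a median of at least 3.8. The combined MYCN and MYC level per MAX was 5.58 ± 0.835 in the MYC-OFF libraries of SHEP and 2.98 ± 0.605 in the MYC-ON ones, where MYCN was lower and MAX higher. In SKNAS it was 5.89 ± 2.84 and 4.2 ± 2.47, a difference within the spread. These are ratios of RNA levels. The fusion protein enters the nucleus with 4OHT, so they do not measure active N-MYC per MAX.

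Among the MXD genes, MXI1 rose while MXD3 and MXD4 fell. MXI1 (ENSG00000119950, chromosome 10, 110207605 to 110287365 on the + strand) encodes a SIN3-recruiting MAX partner. In SHEP its lowest, median and highest levels were 12.8, 18 and 23.5 TPM in MYC-OFF and 39.1, 51 and 75.9 TPM in MYC-ON, with no overlap. The means differed 2.97-fold, a log2 change of 1.5 (limma adjusted p = 1.23e-30, SE 0.048), which had the lowest adjusted p of the members. In SKNAS the levels were 6.62, 21.2 and 36.3 TPM and 22.6, 51.1 and 129.9 TPM, which overlapped, and both groups rose with the library median. MXI1 was higher in MYC-ON in 13 of 13 pairs of the same CT, with a log2 change of 1.44 (limma adjusted p = 1.27e-04, SE 0.23) on TPM and 2.0 (limma adjusted p = 8.63e-10) with the covariate.

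MXD3 (ENSG00000213347, chromosome 5, 177301461 to 177312757 on the - strand), the MXD gene best known from cells in S phase, moved the other way. Its lowest, median and highest levels were 7.02, 10.2 and 15.1 TPM in SHEP MYC-OFF and 1.74, 3.06 and 4.76 TPM in SHEP MYC-ON, with no overlap, and the log2 change was -1.43 (limma adjusted p = 7.12e-21, SE 0.082). In SKNAS they were 11.7, 25.9 and 37.5 TPM and 7.52, 10.8 and 13.9 TPM, lower in 12 of 13 pairs, and the change was -1.15 (limma adjusted p = 1.41e-05, SE 0.15). MXD3 was the member whose SKNAS level did not rise with the library median (r = -0.30 over 27 libraries, against 0.867 to 0.986 for the 9 others). MXD4 (ENSG00000123933, chromosome 4, 2247432 to 2262109 on the - strand), a MAX and MLX partner of resting and differentiated cells, was at 23.4 ± 2.65 TPM (n = 28, SD) and 13.6 ± 1.6 TPM (n = 28, SD) in SHEP and lower in 28 of 28 pairs, a log2 change of -0.74 (limma adjusted p = 3.01e-21, SE 0.041). In SKNAS it was at 45.1 ± 16.6 TPM (n = 14, SD) and 30.2 ± 8.33 TPM (n = 13, SD). The SKNAS change of -0.46 (limma adjusted p = 0.0412, SE 0.18) did not pass without the minimum level, at -0.46 (limma adjusted p = 0.079), after rescaling, at -0.092 (limma adjusted p = 0.517), or with the covariate, at -0.11 (limma adjusted p = 0.483), but did in the 13 libraries with high medians, at -0.45 (limma adjusted p = 0.0179). MXD1 (ENSG00000059728, chromosome 2, 69897688 to 69942945 on the + strand), first described in differentiating myeloid cells, was the scarcest member in SHEP, at 1.26 ± 0.447 TPM (n = 28, SD) and 1.28 ± 0.333 TPM (n = 28, SD), and had log2 changes of 0.024 in SHEP (95% interval -0.11 to 0.16) and -0.21 in SKNAS (95% interval -0.69 to 0.26).

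MNT (ENSG00000070444, chromosome 17, 2384073 to 2401104 on the - strand), the broadly expressed repressor that pairs with MAX and MLX, was higher in SHEP MYC-ON. Its levels were 18 ± 2.57 TPM (n = 28, SD) and 27.8 ± 3.81 TPM (n = 28, SD), a log2 change of 0.60 (limma adjusted p = 1.42e-14, SE 0.051), higher in 28 of 28 pairs. In SKNAS they were 14.5 ± 8.09 TPM (n = 14, SD) and 17.1 ± 12.7 TPM (n = 13, SD), with a change of 0.23 (limma adjusted p = 0.557, SE 0.32) on TPM that did not pass, 0.59 (limma adjusted p = 0.0234) after rescaling and 1.04 (limma adjusted p = 1.68e-07) with the covariate. MGA (ENSG00000174197, chromosome 15, 41621134 to 41773081 on the + strand), a large repressor that also has a T-box domain, differed between the 2 SHEP series more than between conditions. In series 1 it went from 6.52 ± 0.863 TPM (n = 14, SD) to 9.34 ± 0.917 TPM (n = 14, SD), and in series 2 from 11.3 ± 1.39 TPM (n = 14, SD) to 15.5 ± 3.31 TPM (n = 14, SD). MGA correlated with the library median at r = 0.69 over the 56 SHEP libraries. With that median as a covariate MGA kept its call, at 0.75 (limma adjusted p = 3.10e-07). The log2 change over both was 0.44 (limma adjusted p = 4.86e-04, SE 0.11), higher in 26 of 28 pairs, but 0.44 (limma adjusted p = 0.249) when the means of the 2 series stood as replicates. In SKNAS the change of MGA was 0.047 (limma adjusted p = 0.907, SE 0.30) on TPM and 0.72 (limma adjusted p = 0.00233) with the covariate. MLX (ENSG00000108788, chromosome 17, 42567072 to 42573239 on the + strand) was at 34.1 ± 3.23 TPM (n = 28, SD) and 34.6 ± 2.23 TPM (n = 28, SD) in SHEP, with a log2 change of 0.023 and a 95% interval of -0.041 to 0.087, the narrowest of the 10. In SKNAS it was at 45 ± 13.4 TPM (n = 14, SD) and 37.7 ± 13 TPM (n = 13, SD), with a change of -0.23 (limma adjusted p = 0.233, SE 0.16).

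The SKNAS libraries with a median of at least 3.8 gave a comparison less touched by the spread. There MYC was at 18.2 ± 2.47 TPM (n = 10, SD) in MYC-OFF and 2.72 ± 0.505 TPM (n = 3, SD) in MYC-ON. MXI1 was at 25.5 ± 6.63 TPM (n = 10, SD) and 113 ± 21.5 TPM (n = 3, SD), and MXD3 at 25.6 ± 3.36 TPM (n = 10, SD) and 9.25 ± 1.38 TPM (n = 3, SD). MNT was at 18.8 ± 4.71 TPM (n = 10, SD) and 37 ± 9.02 TPM (n = 3, SD), and MYCN at 737 ± 164 TPM (n = 10, SD) and 775 ± 235 TPM (n = 3, SD). In these 13 libraries 7 of 10 members passed, 4 higher (MXI1, MNT, MGA, MAX) and 3 lower (MYC, MXD3, MXD4), which are the members and signs of the SHEP calls apart from MYCN, at 0.020 (limma adjusted p = 0.928). Of all genes 48.6% passed in these libraries, 21.7% higher and 26.9% lower. The MYC-ON side of this comparison had 3 libraries of 1 series. In the 7 SKNAS libraries below 3.3 the MYCN level ran from 13.1 to 86.6 TPM, under that of every library in the higher bands.

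**Figure D3:**
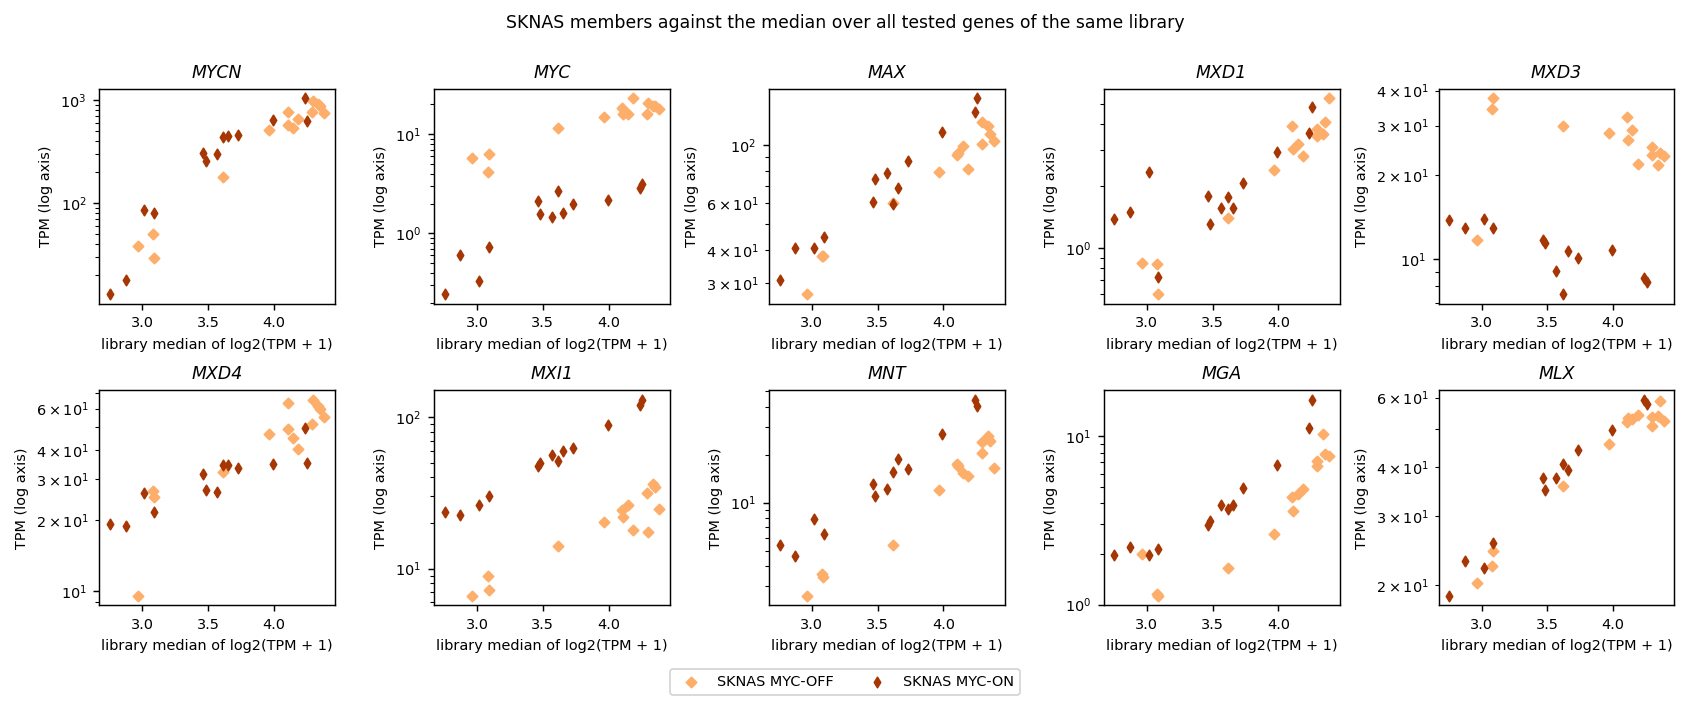
TPM of each member (y axis, log scale) against the median of log2(TPM + 1) over all tested genes of the same library (x axis), 27 SKNAS libraries in 2 conditions. All members but MXD3 climb with the library median, MXI1 of MYC-ON lies above and MYC of MYC-ON below the MYC-OFF points at any given median.

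The make-up of the repressor side differed between the conditions in both lines. The 6 MAX partners MXD1, MXD3, MXD4, MXI1, MNT and MGA summed to 80.2 ± 6.84 TPM in SHEP MYC-OFF and 113 ± 13.5 TPM in SHEP MYC-ON, and per MAX to 0.79 ± 0.0961 and 0.895 ± 0.216. MXI1 made up 22.8 ± 2.17% of the sum in SHEP without 4OHT and 47.9 ± 5.3% with it. MXD4 went from 29.2 ± 2.99% to 12.2 ± 1.56% and MXD3 from 12.9 ± 2.57% to 2.91 ± 0.917%. These are ratios within a library, from which a scale common to all genes drops out. In SKNAS MXI1 made up 17.7 ± 4.15% in MYC-OFF, from 9.56 to 22.7%, and 45.2 ± 6.86% in MYC-ON, from 33.4 to 55.4%, with no overlap. MXD4 went from 38.5 ± 4.75% to 26.2 ± 5.03% and MXD3 from 25.8 ± 11.4% to 11 ± 6.16% there. The SKNAS shares still differed with the library median, with which MXD3 did not rise. In libraries with medians of at least 3.8 the share of MXD3 was 19.6 ± 3.93% in MYC-OFF and 4.49 ± 1.59% in MYC-ON, and below 3.3 it was 43.6 ± 7.67% and 19.2 ± 1.85%. MXI1 made up 19 ± 3.32% and 52.7 ± 2.36% in the high band and 13.8 ± 5.41% and 36.6 ± 3.07% in the low one, so that in each band MXI1 had the larger and MXD3 the smaller share in MYC-ON. The shares of MNT were 22.5 ± 3.25% and 24.8 ± 2.93% in SHEP and 11.6 ± 4.22% and 12.3 ± 3.44% in SKNAS, where by band they were 14 ± 2.04% and 17.1 ± 1.41% at high and 5.7 ± 1.85% and 8.57 ± 1.09% at low medians. MXI1 exceeded MXD4 in MYC-ON but not in MYC-OFF in SHEP, with ratios of 4.04 ± 0.968 and 0.787 ± 0.0885, and in SKNAS the ratios were 1.85 ± 0.727 and 0.468 ± 0.131. The level of MYCN per unit of this sum was 6.93 ± 0.659 and 3.38 ± 0.679 in SHEP. That too is a ratio of RNA levels and does not measure active N-MYC, since 4OHT lets the fusion protein enter the nucleus.

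**Figure D4:**
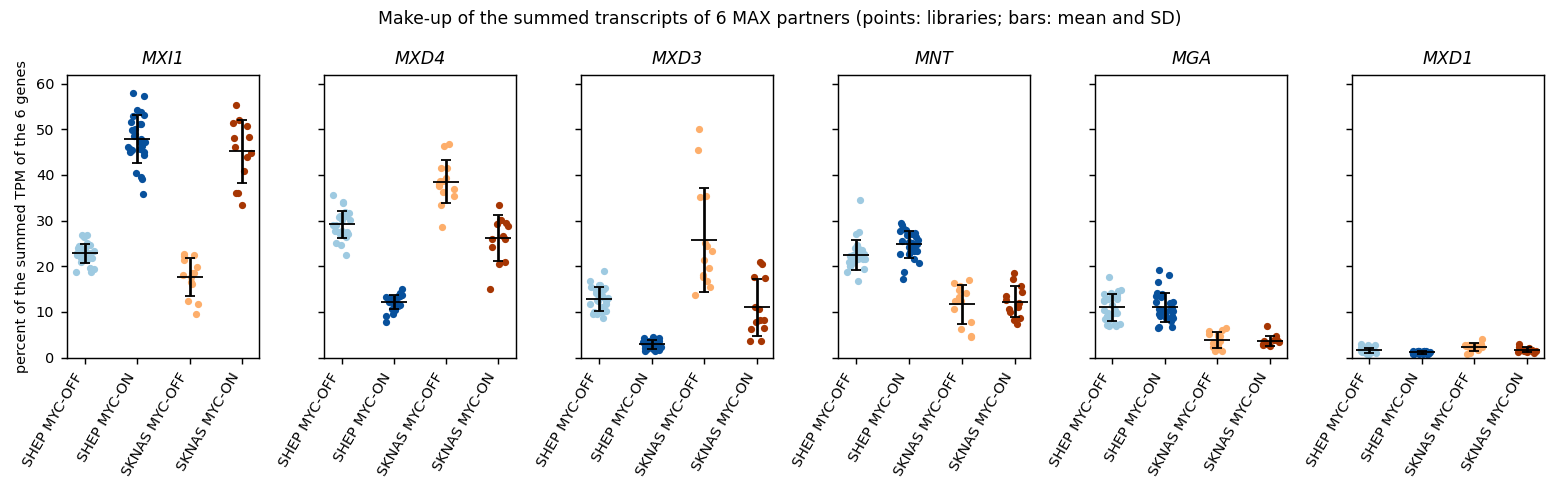
Share of each of 6 MAX partners in their summed TPM (y axis, percent) by group, 1 point per library with the mean and SD as bars. MXI1 rises from 22.8% to 47.9% in SHEP and from 17.7% to 45.2% in SKNAS, while MXD4 and MXD3 shrink in both lines.

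Next, the level of the members was compared between the lines in MYC-OFF cells. At a log2 difference of at least 0.66, 4 of 10 members passed beside 51.1% of the 15942 genes tested (20% higher and 31.1% lower in SKNAS). MXD3, at 1.26 (limma adjusted p = 2.19e-18, SE 0.10), MXD4, at 0.80 (limma adjusted p = 2.19e-09, SE 0.11), and MXD1, at 0.66 (limma adjusted p = 1.53e-06, SE 0.12), were higher in SKNAS. MGA, at -0.94 (limma adjusted p = 3.21e-06, SE 0.18), was lower in SKNAS, but at -0.49 (limma adjusted p = 2.99e-04) with the library median as covariate it no longer reached that size. Set against SHEP series 1 alone MGA was at -0.59 (limma adjusted p = 0.0101), also short of it, and against series 2 alone at -1.29 (limma adjusted p = 9.47e-07). MXD1, MXD3 and MXD4 passed under that covariate too, while MXD1 fell just short against series 2 alone, at 0.65 (limma adjusted p = 4.25e-04). When the 4 groups were ordered by mean level, 7 of 30 neighbouring pairs differed by more than the larger of their SDs. For MXD3 the order was SKNAS MYC-OFF, SKNAS MYC-ON, SHEP MYC-OFF and SHEP MYC-ON, with the middle pair alike within their spread. For MYC both MYC-OFF groups stood above both MYC-ON groups, and for MXI1 both MYC-ON groups above both MYC-OFF groups. The order of the 4 groups for MYCN, MXD1, MGA and MLX held no neighbours that differed beyond their spread. For MYCN, SKNAS MYC-OFF, with its wide spread, stood between the SHEP groups. So SHEP MYC-OFF (555 ± 70.8 TPM) and SHEP MYC-ON (377 ± 69.5 TPM) were not compared as neighbours.

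Whether the change with MYC-ON differed between the lines depended on the scaling. On TPM the interaction passed for 3 of 10 members, beside 51.6% of all genes (13.5% higher and 38.1% lower in SKNAS), namely MYC at -0.66 (limma adjusted p = 0.00473, SE 0.20), MAX at -0.47 (limma adjusted p = 0.00884, SE 0.15) and MLX at -0.26 (limma adjusted p = 0.0384, SE 0.11), each more negative in SKNAS. The median interaction of all genes was -0.22 on TPM, and 0.0045 after rescaling. Of the genes called, 26.2% were higher in SKNAS on TPM and 50.2% after rescaling. With the library median as covariate none of these 3 passed, with MYC at -0.33 (limma adjusted p = 0.165), MAX at -0.024 (limma adjusted p = 0.859) and MLX, its sign turned, at 0.040 (limma adjusted p = 0.665). There MYCN, MXD4, MXI1 and MNT passed with more positive changes in SKNAS, 4 of 10 beside 47.1% of all genes (24.9% higher and 22.2% lower), so the members' share was no higher than that of all genes. After rescaling 3 of 10 members passed, 2 higher and 1 lower in SKNAS, beside 4018 genes higher and 3993 lower of 15942. In libraries with medians of at least 3.8, 3 passed, 3 higher and 0 lower, beside 2662 genes higher and 2927 lower. On TPM without SHEP series 1 the interaction passed for 1 member (limma), beside 1581 genes higher and 3640 lower in SKNAS. Without series 2 it passed for 0, beside 1424 genes higher and 3626 lower. MXD4 kept the sign of a smaller fall in SKNAS under each alternative run, at 0.28 (limma adjusted p = 0.0506, SE 0.12) on TPM, 0.56 (limma adjusted p = 9.74e-07) after rescaling and 0.57 (limma adjusted p = 1.93e-06) with the covariate, but it did not pass when a SHEP series was left out (limma adjusted p = 0.17 and 0.336).

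The time course was then read as a linear slope per 24 h from CT24 to CT76. In SHEP MYC-OFF 2 of 10 members passed, beside 11.8% of genes (with 4.38% rising and 7.46% falling). MXD4 rose by 0.14 (SE 0.042, limma adjusted p = 0.0155) and MXI1 by 0.14 (SE 0.044, limma adjusted p = 0.0288) on the log2 scale, and neither passed in SHEP series 2 alone (limma adjusted p = 0.24 and 0.731). In SHEP MYC-ON 5 of 10 passed, beside 60.3% of genes (with 21.3% rising and 39% falling). MXI1 rose, at 0.33 (limma adjusted p = 3.70e-09, SE 0.044), from 44.8 ± 3.85 TPM (n = 8, SD) over CT24 to CT36 to 66.5 ± 5.55 TPM (n = 8, SD) over CT64 to CT76, and it did so in each series. MXD3 fell, at -0.29 (limma adjusted p = 2.57e-04, SE 0.069), from 4.0 ± 0.597 TPM (n = 8, SD) to 2.61 ± 0.517 TPM (n = 8, SD), which series 1 alone did not pass (limma adjusted p = 0.141). The gap between these partners thus widened with time in MYC-ON. MAX fell, at -0.20 (limma adjusted p = 4.68e-04, SE 0.049), mainly in series 1, where it went from 149 ± 11.4 TPM (n = 4, SD) to 98 ± 10.7 TPM (n = 4, SD), against 133 ± 9.77 TPM (n = 4, SD) and 126 ± 15.4 TPM (n = 4, SD) in series 2. The MYC-OFF means over the same hours were 110 and 97.9 TPM in series 1 and 97.3 and 113 TPM in series 2. MGA fell, at -0.16 (limma adjusted p = 0.00844, SE 0.053), a slope of -0.0074 with the library median as covariate (limma adjusted p = 0.914).

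The rise of MYC in SHEP MYC-ON, at 0.35 (limma adjusted p = 0.00231, SE 0.10), differed between the series. In series 2 MYC went from 1.62 ± 0.638 TPM (n = 4, SD) to 4.91 ± 0.296 TPM (n = 4, SD), still below the lowest MYC-OFF library at 7.42 TPM. In series 1 it was 2.75 ± 2.47 TPM (n = 4, SD) early and 2.44 ± 0.531 TPM (n = 4, SD) late, and the slope there was -0.014 (limma adjusted p = 0.944). The first library of series 1, at CT24, held 6.45 TPM, the highest of the group, while the other 27 lay between 0.801 and 5.33 TPM. Without that library the slope over both series was 0.52 (limma adjusted p = 4.44e-08). In MYC-OFF the slope of MYC was -0.14 (limma adjusted p = 0.434).

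The slopes of MYC-ON and MYC-OFF differed for 6 of 10 members in SHEP, beside 43.4% of genes (16.1% with a higher and 27.4% with a lower slope in MYC-ON). The difference was positive for MYC, at 0.48 (limma adjusted p = 0.00424, SE 0.14), MXD1, at 0.26 (limma adjusted p = 0.0174, SE 0.090), and MXI1, at 0.20 (limma adjusted p = 0.00875, SE 0.062). It was negative for MXD3, at -0.47 (limma adjusted p = 7.33e-05, SE 0.097), MAX, at -0.23 (limma adjusted p = 0.00487, SE 0.069), and MYCN, at -0.22 (limma adjusted p = 0.0126, SE 0.075). MYCN had gone from 532 ± 70.8 TPM (n = 8, SD) to 621 ± 46.3 TPM (n = 8, SD) in MYC-OFF and from 403 ± 66.2 TPM (n = 8, SD) to 346 ± 76.4 TPM (n = 8, SD) in MYC-ON, with neither slope passing by itself (limma adjusted p = 0.166 and 0.0702). Over the same hours ESR1 went from 907 ± 133 to 1084 ± 65.1 TPM in MYC-OFF and from 685 ± 93.1 to 681 ± 110 TPM in MYC-ON. In series 2 of MYC-ON the mean of MYCN went from 443 to 362 TPM and that of ESR1 from 740 to 769 TPM. In series 1 they went from 363 to 330 TPM and from 629 to 593 TPM. Of these 6, MXD3 and MAX passed in each series alone, MYC and MXI1 in series 2 alone but not in series 1, and MYCN and MXD1 in neither. Of the markers of proliferating cells, all 10 of 10 had a lower slope in MYC-ON than in MYC-OFF by the same test, with a median difference of -0.50. That is the sign of MXD3, MAX and MYCN and the opposite of MYC, MXD1 and MXI1. The markers' part in the members' slopes was not tested. In SKNAS 0 of 10 slopes passed in MYC-OFF (limma, 4 at an unadjusted p under 0.05), 0 in MYC-ON (0 unadjusted) and 0 in their difference (0 unadjusted), beside 0.194%, 0.18% and 0.0864% of genes. The shares rising and falling were 0.0576% and 0.137% in MYC-OFF, 0.036% and 0.144% in MYC-ON, and 0.0288% and 0.0576% for the difference.

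A 24 h rhythm was not detected in any member. In an F test of a 24 h cosine in limma, with a mean and a trend for each series, 0 of 10 members passed in the MYC-OFF and MYC-ON groups of SHEP and in those of SKNAS, beside 0.132%, 0.111%, 0% and 0% of genes. At an unadjusted p under 0.05 the counts were 0, 1, 0 and 0. That 1 was MYCN in SHEP MYC-ON, with an amplitude of 0.13 on the log2 scale (unadjusted p = 0.0452, limma adjusted p = 0.349). The next lowest was MXD3 in SHEP MYC-OFF, with an amplitude of 0.15 (unadjusted p = 0.0578, limma adjusted p = 0.625). Periods of 20 h and 28 h gave 0 of 10 in each group as well. A test for a change of rhythm between MYC-ON and MYC-OFF gave 0 of 10 in both lines (0 unadjusted), beside 0% of genes.

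**Figure D5:**
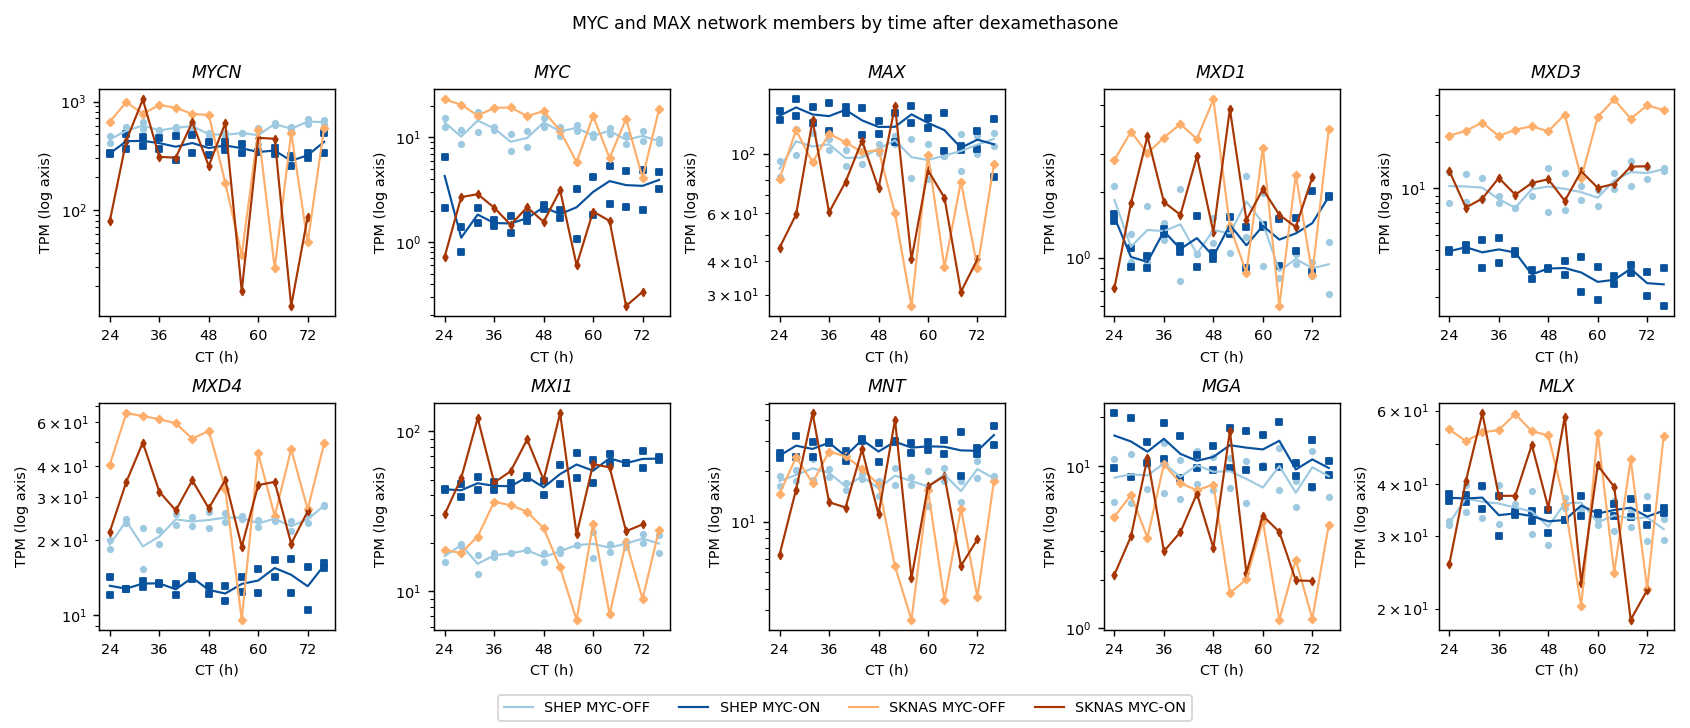
TPM of each member (y axis, log scale) by circadian time in hours (x axis) for the 4 groups, with points for libraries and lines through the mean at each time (2 series in SHEP, 1 in SKNAS). MXI1 of SHEP MYC-ON climbs and MXD3 of SHEP MYC-ON declines with time, and the SKNAS lines swing together from library to library in 9 of the 10 members.

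The genes most like MYCN, MYC and MAX were sought by Pearson correlation of log2(TPM + 1) over the 56 SHEP libraries after removal of the mean of each series and condition. Nearest to MYCN were LSM14B at 0.80 (0.98 in SKNAS), COL4A2 at 0.80 (0.64 in SKNAS) and SHROOM3 at 0.78 (not tested in SKNAS). Nearest to MYC were PPP1R15A at 0.78 (0.86 in SKNAS), RND3 at 0.77 (0.87 in SKNAS) and ETS1 at 0.73 (0.90 in SKNAS). Nearest to MAX were SEPTIN2 at 0.68 (0.94 in SKNAS), ABCF1 at 0.67 (0.97 in SKNAS) and NOLC1 at 0.67 (0.96 in SKNAS). The SKNAS values, over 27 libraries, share the spread of the library median, and all points share libraries and time.

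Known targets and partners of the network gave its surroundings, in counts over fixed lists that can be set against the shares of all genes above. Of 10 long-known MYC and MAX targets, 10 were higher in SHEP MYC-ON, with a median log2 change of 0.97, led by ODC1 (polyamine synthesis) at 2.14 (limma adjusted p = 4.23e-40, SE 0.039), FBL (a nucleolar methyltransferase) at 1.66 (limma adjusted p = 5.59e-42, SE 0.027) and NPM1 (nucleolar chaperone) at 1.55 (limma adjusted p = 2.11e-31, SE 0.047). In SKNAS 8 were higher and 0 lower, with a median of 0.62, and 9 were higher with the covariate. TFAP4, a bHLH-zipper factor known as a MYC target, rose in both lines, at 0.83 (limma adjusted p = 9.26e-15, SE 0.070) and 1.15 (limma adjusted p = 4.35e-04, SE 0.21). Among the MLX partners, MLXIP was at 30.3 ± 5.21 TPM (n = 28, SD) and 29.3 ± 6.6 TPM (n = 28, SD) in SHEP, with a change of -0.057 (limma adjusted p = 0.397, SE 0.062), and MLXIPL at 0.209 and 1.13 TPM in SHEP was below the minimum level, and without that minimum it rose, at 0.75 (limma adjusted p = 6.09e-11), higher in 26 of 28 pairs. MYCL, at 0.666 and 0.326 TPM in SHEP, was below it too, and without that minimum it fell, at -0.33 (limma adjusted p = 1.52e-10), lower in 27 of 28 pairs. In SKNAS the means of MLXIPL were 0.631 TPM in MYC-OFF and 0.253 TPM in MYC-ON, lower in 10 of 13 pairs. Those of MYCL were 0.0534 and 0.0889 TPM, lower in 7 of 13 pairs. TXNIP, a regulator of glucose uptake driven by MLX dimers, had a change of 0.50 (limma adjusted p = 5.88e-05, SE 0.11) in SHEP that did not pass in series 2 alone, at 0.34 (limma adjusted p = 0.0581). Its medians were 43.6 and 48.3 TPM, and in MYC-ON it rose with time by 1.38 per 24 h (limma adjusted p = 4.21e-20) to a highest level of 263 TPM. In SKNAS its change was -0.26 (limma adjusted p = 0.324, SE 0.21), while ARRDC4, the other such target, was under 1 TPM on average in each group.

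Of 7 SIN3 and NCOR corepressor genes used by MXD and MNT, 1 was higher and 2 were lower in SHEP MYC-ON. NCOR1 fell, at -0.59 (limma adjusted p = 2.70e-08, SE 0.084), and so did the deacetylase HDAC1, at -0.56 (limma adjusted p = 2.64e-15, SE 0.046), while SAP30 rose, at 0.23 (limma adjusted p = 2.81e-04, SE 0.055). SAP30 did not pass in series 2 alone, at 0.13 (limma adjusted p = 0.152), or with series means as replicates, at 0.23 (limma adjusted p = 0.0528). In SKNAS 0 were higher and 1, NCOR1, was lower on TPM, but not in the libraries with high medians, at -0.44 (limma adjusted p = 0.274). Of 9 genes of the MGA polycomb complex, 7 were higher and 1 lower in SHEP, and the ubiquitin ligase RNF2, at 0.70 (limma adjusted p = 8.76e-16, SE 0.056), and the chromodomain protein CBX3, at 0.54 (limma adjusted p = 2.79e-19, SE 0.034), rose while the other ligase RING1 fell, at -0.61 (limma adjusted p = 1.11e-17, SE 0.043). In SKNAS 1 of them was higher on TPM and 8 with the covariate, beside 13.9% and 28.3% of all genes. RING1 fell there on TPM, at -0.53 (limma adjusted p = 5.22e-04, SE 0.10), and with the covariate, at -0.50 (limma adjusted p = 5.13e-04), but did not pass after rescaling, at -0.17 (limma adjusted p = 0.345). Of 12 MYC cofactors, 4 were higher and 0 lower in SHEP, led by the ATPase RUVBL1, at 1.09 (limma adjusted p = 3.93e-34, SE 0.028), the acetyltransferase KAT2A, at 0.80 (limma adjusted p = 3.21e-24, SE 0.037), and RUVBL2, at 0.56 (limma adjusted p = 2.45e-22, SE 0.029), and in SKNAS 3 were higher and 1 lower on TPM, while rescaling gave 7 higher and 0 lower, and the covariate 8 higher and 0 lower. Of 14 genes of MYC protein turnover, 7 were higher and 3 lower in SHEP, led by the deubiquitinase USP36, at 1.4 (limma adjusted p = 9.51e-33, SE 0.039), the ubiquitin ligase STUB1, at 0.86 (limma adjusted p = 1.46e-26, SE 0.035), and the kinase PLK1, at 0.46 (limma adjusted p = 2.75e-06, SE 0.083). In SKNAS 2 of them were higher and 1 lower on TPM, and 9 and 1 with the covariate, where the share of higher calls over all genes also grew from 13.9% to 28.3%.

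Marker genes of cell state also moved with MYC-ON, and their part in the members' changes was not tested. Of 10 proliferation markers 4 were higher and 2 lower in SHEP, with E2F1 at -0.72 (limma adjusted p = 5.84e-08, SE 0.11), AURKB at 0.42 (limma adjusted p = 2.68e-07, SE 0.067) and TOP2A at -0.30 (limma adjusted p = 9.50e-04, SE 0.082), and 2 higher and 2 lower in SKNAS on TPM. TOP2A did not pass with the library median as covariate, at -0.015 (limma adjusted p = 0.87), with series means as replicates, at -0.30 (limma adjusted p = 0.111), or in series 1 alone, at -0.25 (limma adjusted p = 0.061). The SKNAS count of these markers was 5 higher and 1 lower after rescaling and 6 higher and 0 lower with the covariate. Of the adrenergic markers 3 could be tested in SHEP, where 2 were higher, GATA2 at 1.24 (limma adjusted p = 8.79e-33, SE 0.035) and HAND2 at 0.72 (limma adjusted p = 2.44e-17, SE 0.051). In SKNAS 7 could be tested, and 1 was higher and 6 lower on TPM, where the median change of all genes was -0.29. Of 10 mesenchymal markers 2 were higher and 6 lower in SHEP, led by FN1 (fibronectin) at -2.24 (limma adjusted p = 1.02e-23, SE 0.11), PRRX1 at 1.61 (limma adjusted p = 3.06e-19, SE 0.10) and SNAI2 at -0.70 (limma adjusted p = 2.87e-11, SE 0.077), and 1 higher and 4 lower in SKNAS on TPM, or 4 and 3 with the covariate.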

How the data were processed

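Libraries of polyadenylated RNA were quantified by the authors with Salmon 1.3.0 (named in the submitters' processing notes) against GRCh38 transcripts and summed to genes with tximport. The deposited TPM hold 1 value for each of 60237 genes in 83 libraries, divided by length and scaled to one total, so they keep no read depth and precision was taken from the spread between libraries. Because TPM are not counts, log2(TPM + 1) was fitted with limma 3.58.1 (R 4.3.3) in place of the authors' count model. Genes with a mean of at least 1 TPM in a line were tested, with CT as a factor, and p-values were Benjamini-Hochberg adjusted over all of them. The members and gene lists were chosen with earlier results of these data known. Genes named are the 10 members, the small lists, the 3 genes per other list with the largest SHEP change among those called, and the 3 nearest genes to MYCN, MYC and MAX. The fits were tested on simulated data. Series numbers of SHEP were treated as a block in the slope and rhythm fits only. Same-numbered MYC-OFF and MYC-ON libraries of the same CT deviated together weakly (median r over genes 0.090, above 0.1 in 13 of 28), and no 2 libraries were identical. The difference between series 1 and series 2 was partly shared by the conditions, with r = 0.49 over genes between MYC-OFF and MYC-ON. Loci came from Gencode on GRCh38 and promoter windows from RefSeq. Alternatives were the pseudocount, filter, scaling, covariate, block, period and left-out series or libraries. The library at CT24 and the high-median restriction between lines were added after seeing the data.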

Additional observations from a re-analysis of the deposited data

Results flagged for a closer look

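For 3 members the change with MYC-ON differed between SKNAS and SHEP by an interaction test in limma on TPM. The difference (SKNAS minus SHEP) was -0.66 for MYC, -0.47 for MAX and -0.26 for MLX, beside a median of -0.22 over all genes. In the SKNAS libraries with a median of at least 3.8 and all SHEP libraries these were -0.51, 0.062 and 0.043, none past the threshold. For 6 members the slope over time differed between MYC-ON and MYC-OFF in SHEP by a test of the difference. The difference per 24 h was -0.22 for MYCN, 0.48 for MYC, -0.23 for MAX, 0.26 for MXD1, -0.47 for MXD3 and 0.20 for MXI1. Of these, MXD3 and MAX passed in each series alone.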

How the results depend on the processing

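Of 348 values of single members under an alternative, 267 kept their direction and side of the threshold, 34 lost a call, 12 gained one and 35 changed sign. In SHEP 7 to 8 members passed under every alternative run, beside 71.9% of genes in the main fit. The 7 came with series means as replicates, where 3479 genes were called higher and 4148 lower of 14362. Without the minimum level 8 passed, beside 5690 genes higher and 6463 lower of 37736. Among the SHEP alternatives MXD1 changed sign with the covariate (-0.0087). It ran from -0.054 without series 2 to 0.10 without series 1, while MLX ran from -0.031 to 0.077. In SKNAS the change became 0.23 for MAX, 0.073 for MXD1 and 0.13 for MLX after rescaling. In SKNAS the change became 0.65 for MYCN, 0.35 for MAX, 0.27 for MXD1 and 0.14 for MLX with the library median as covariate. In SKNAS the change became 0.020 for MYCN, 0.39 for MAX, 0.071 for MXD1 and 0.066 for MLX in libraries with medians of at least 3.8. There 7 members passed, beside 48.6% of all genes. After rescaling the line difference of the MYC effect became 0.18 for MYCN, 0.23 for MXI1 and 0.021 for MLX. With the covariate the line difference of the MYC effect became 1.02 for MYCN, 0.16 for MXD1, 0.41 for MXI1, 0.32 for MNT, 0.26 for MGA and 0.040 for MLX. In libraries with high medians the line difference of the MYC effect became 0.59 for MYCN, 0.062 for MAX, 0.046 for MXD1, 0.63 for MXI1, 0.32 for MNT, 0.38 for MGA and 0.043 for MLX. It passed for 5 members with a pseudocount of 0.1, beside 1872 genes called higher and 5991 lower of 15942. When a SHEP series was left out it passed for 0 to 1, with 5050 to 5221 of all genes called against 8227. The line difference in MYC-OFF became 0.34 for MYCN and 0.0028 for MNT with the covariate and 0.37 for MYCN and 0.031 for MNT with high medians only. Leaving out a SHEP series gave 0 to 2 members with a slope in MYC-OFF (144 to 2052 of all genes, 1700 with both). It gave a MYC slope in MYC-ON from -0.014 in series 1 to 0.71 in series 2. It left 3 to 4 members with a slope difference. Beside these, of 14362 genes 1625 were higher and 2987 lower without series 1, and 1600 and 2793 without series 2. All genes called rhythmic numbered 19 and 16 in SHEP MYC-OFF and MYC-ON, 0 and 0 at a period of 20 h, and 0 to 1 and 0 to 0 without a series, and the difference was called for 2 genes at 28 h against 0. SKNAS slopes over all genes numbered 77 and 62 after rescaling and 79, 223 and 126 (difference) with the covariate, against 27, 25 and 12. The replicate block changed no call of a member in the SHEP MYC effect. There 8 passed with the series as block, beside 4767 genes higher and 5611 lower of 14362. With the series and CT as block 8 passed too, beside 4754 higher and 5594 lower. The log2 changes were -1.87 for MYC and 1.5 for MXI1. Without the block 4 slopes passed in MYC-ON (MGA lost), beside 2894 genes rising and 5346 falling. Series numbers are shared, and the labels call them replicates without saying what a number marks. The causes of these shifts were not tested, and the unknown depth leaves low levels, such as those of MXD1, without a counting error.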
